A study of Mus musculus with 4 samples.

Results

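Integrin subunit genes were examined in CD4+ thymocytes of miR-142-/- and WT mice at an earlier and a later step of maturation. The set held 10 genes chosen by name, with earlier results of these data known. They were 5 alpha subunits (Itgae, Itga4, Itga6, Itgal and Itgav) and 5 beta subunits (Itgb1, Itgb2, Itgb3, Itgb7 and Itgb8). Each was measured by 1 probe set, out of 19938 genes with a probe set of a single symbol. All 10 lay above background on every array, where background is a log2 value of 5.87, the 95th percentile of the mean values of 1194 olfactory and vomeronasal receptor genes, taken here as genes with no role in thymocytes. Itgb8 was included because its stage difference ran in opposite directions in the genotypes, so its values are given as a description with no test.

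Mice were C57BL/6n animals aged 8 weeks. The miR-142-/- pool lacked the microRNA gene Mir142 and held 4 mice (1 female and 3 male), and the WT pool (miR-142+/+) held 5 mice (3 female and 2 male). From each pool, thymocytes depleted of CD8+ cells were sorted into mature CD4+CD8-CD69-Qa2+ cells and less mature CD4+CD8-CD69+Qa2- cells, called Qa2+ and Qa2- below. Each of the 4 sorted populations gave 1 Affymetrix Mouse Gene 1.0 ST array, so a difference between 2 arrays has no replicate check. Labels for the miR-142-/- Qa2- array are not uniform, since its free-text description names Qa2+ cells while Qa2- is given in its title and in its sorting entry, which were used here.

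Integrins are adhesion receptors made of 1 alpha and 1 beta chain. They bind matrix proteins or counter-receptors on other cells, and in T cells they are switched on from inside the cell by talin, kindlin and the small GTPase Rap1. Itgae encodes CD103, which pairs with Itgb7 as a receptor for E-cadherin on epithelium. Itga4 pairs with Itgb7 for homing to gut or with Itgb1 for binding VCAM-1. Itga6 with Itgb1 binds laminin, and Itgal with Itgb2 forms LFA-1, the main receptor of T cells for ICAM proteins. Itgav pairs with Itgb1, Itgb3 or Itgb8, and with Itgb8 it releases active TGF-beta from its latent complex, a complex that regulatory T cells hold at their surface through Lrrc32.

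The microRNA absent from the mutant cells gives 2 mature strands. They are shown because the seed, bases 2 to 8 and here in capitals, is the part that pairs with target messages, and because the human counterpart of Itgav has been reported as a target of the 3p strand in breast cancer cells. Sequences are from RefSeq (GRCm38.p6), chromosome 11, plus strand, at chr11:87756867-87756887 for the 5p strand and chr11:87756903-87756925 for the 3p strand.
mmu-miR-142a-5p: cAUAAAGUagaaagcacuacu
mmu-miR-142a-3p: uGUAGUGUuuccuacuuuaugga
Sites in the integrin messages were not analysed here. Itgae (chr11:73090505-73147449) and Itgb3 (chr11:104608000-104670476) lie on the same chromosome as Mir142, 14.6 Mb and 16.9 Mb away, and the other 8 genes lie on other chromosomes.

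Across all 35557 probe sets the array medians lay between log2 6.61 and 6.74, and arrays correlated at 0.982 to 0.991. Mir142 read 4.88 and 5.29 in miR-142-/- Qa2+ and Qa2- cells, below background, against 9.41 and 10.11 in WT Qa2+ and Qa2- cells. That is at least 11.6-fold lower in the miR-142-/- cells at the Qa2+ and 19.0-fold lower at the Qa2- stage. Cd69 was lower in Qa2+ than in Qa2- cells by 0.96 in miR-142-/- (10.55 and 11.51) and by 0.77 in WT (10.55 and 11.32), in the direction of the sort. Cd4 read 12.36 to 12.64 on the 4 arrays and Cd8a 7.25 to 7.53. Cd8b1, the other CD8 chain, was less even, at 8.75 and 9.24 in miR-142-/- Qa2+ and Qa2- cells, against 9.98 and 9.97 in WT Qa2+ and Qa2- cells (2.34-fold and 1.66-fold lower in miR-142-/-). Sex-linked transcripts did not follow the labelled mixed pools: Xist was below background in miR-142-/- (4.83 and 5.06) and 12.14 and 12.67 in WT, while Eif2s3y, Kdm5d and Uty read 9.72 to 10.58 in miR-142-/- and 4.29 to 5.09 in WT. The part of this imbalance in the genotype differences was not tested.

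**Figure D1:**
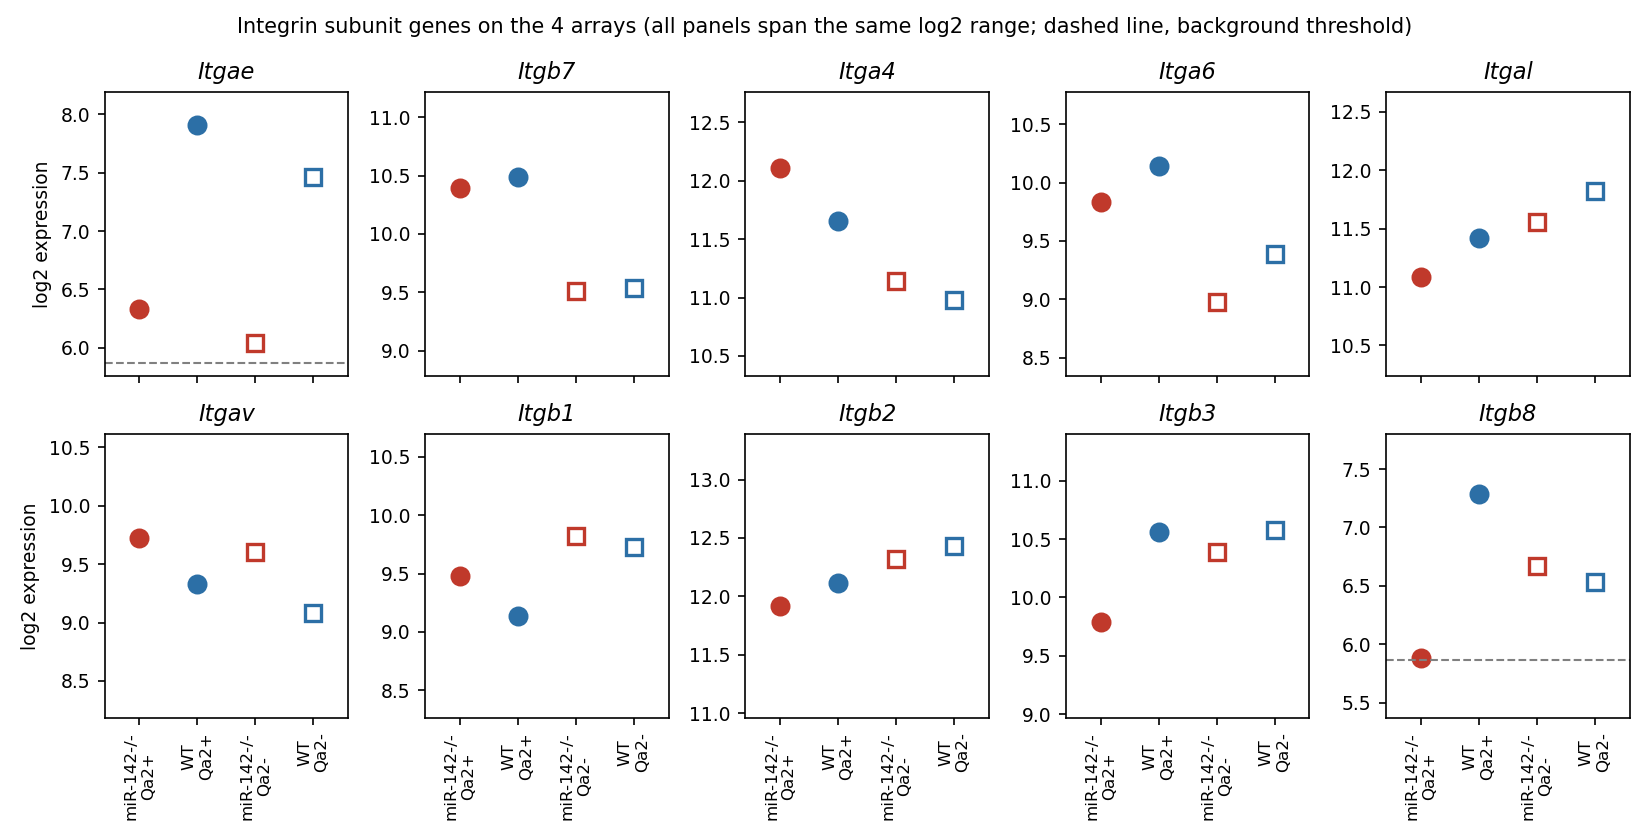
The log2 expression of each of the 10 integrin genes on the 4 arrays. Red stands for miR-142-/- and blue for WT, filled circles for Qa2+ and open squares for Qa2- cells; the dashed line is the background threshold of 5.87. Itgae differs mainly by genotype, Itgb7, Itga4 and Itga6 mainly by stage, and Itgb8 in miR-142-/- Qa2+ cells (5.88) sits at the threshold.

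The comparison of stages asks which integrin genes differ between mature and less mature CD4+ thymocytes. In Qa2+ cells of both genotypes the gut-homing pair Itgb7 and Itga4 and the laminin receptor chain Itga6 rose, by 0.80 to 0.92 on the log2 scale, while the LFA-1 chains Itgal and Itgb2 and the common chain Itgb1 fell by 0.36 to 0.46. Differences are Qa2+ minus Qa2-, averaged over genotypes and tested with limma, with genotype as a block and Benjamini-Hochberg adjustment over 12591 genes above background. Of the 9 integrin genes tested (all but Itgb8), 3 rose and 3 fell, against 4.77% of all genes tested that rose and 8.35% that fell. These 6 calls stand beside 13.1% of all genes called either way. Members were chosen with earlier results of these data known, so these counts, and those by genotype below, describe the set and test nothing. Counted within a genotype with no test, 3 of the 10 genes were at least 1.5-fold higher in Qa2+ cells and 2 lower in miR-142-/- (2.65% and 3.64% of all genes), and 4 were higher and 1 lower in WT (2.69% and 3.69%). Itgb8, chosen by its stage values, is 1 of the 2 lower genes in miR-142-/- and 1 of the 4 higher genes in WT. Both lower counts lost 1 gene with median-centred or quantile-normalized arrays, Itgb3 in miR-142-/- (-0.53 and -0.56) and Itgb1 in WT (-0.49 and -0.49).

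Itgb7, the beta chain of the E-cadherin and gut-homing receptors, read 10.39 and 10.49 in Qa2+ cells of miR-142-/- and WT. It read 9.51 and 9.54 in the Qa2- cells of these genotypes. The genotypes nearly coincided at each stage. The averaged difference was 0.92 ± 0.10 (SE, limma adjusted p = 0.00197), 1.84-fold in miR-142-/- and 1.94-fold in WT. Within a genotype it ranked 126th from the top of 12591 genes in miR-142-/- and 77th in WT.

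Itga4, its partner and also that of Itgb1, read 12.11 and 11.66 in Qa2+ cells of miR-142-/- and WT, against 11.14 and 10.98 in Qa2- cells. The averaged difference was 0.82 ± 0.11 (SE, limma adjusted p = 0.00414). It ranked 96th from the top in miR-142-/- and 236th in WT.

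Itga6, the laminin receptor chain, read 9.83 and 10.14 in Qa2+ cells of miR-142-/- and WT, against 8.98 and 9.39 in Qa2- cells. Its averaged difference was 0.80 ± 0.10 (SE, limma adjusted p = 0.00318). Each gene of this rising group was at least 1.6-fold higher in Qa2+ cells within each genotype, with Itga4 in WT the smallest of the 6 folds.

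The promoters of Itgb7 and Itga4 are shown because these partner genes rose together, and that of Itgb8 because it did not follow them. Each is the 250 bases before the RefSeq start (GRCm38.p6), read on the gene's strand. Capitals mark CACCC or its reverse complement GGGTG, the core of the box bound by Kruppel-like factors; adjoining matches may run together.
Itgb7, minus strand, chr15:102231936-102232185: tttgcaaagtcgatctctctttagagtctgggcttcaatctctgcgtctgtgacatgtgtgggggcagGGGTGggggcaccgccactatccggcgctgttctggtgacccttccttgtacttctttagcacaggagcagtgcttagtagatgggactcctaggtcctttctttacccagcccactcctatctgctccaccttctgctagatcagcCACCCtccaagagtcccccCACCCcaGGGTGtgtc
Itga4, plus strand, chr2:79255176-79255425: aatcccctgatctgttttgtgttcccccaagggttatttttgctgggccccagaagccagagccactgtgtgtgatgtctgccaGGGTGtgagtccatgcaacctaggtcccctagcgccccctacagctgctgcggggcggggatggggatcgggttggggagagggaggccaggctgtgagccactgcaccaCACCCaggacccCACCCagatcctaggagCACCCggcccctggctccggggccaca
Itgb8, minus strand, chr12:119238277-119238526: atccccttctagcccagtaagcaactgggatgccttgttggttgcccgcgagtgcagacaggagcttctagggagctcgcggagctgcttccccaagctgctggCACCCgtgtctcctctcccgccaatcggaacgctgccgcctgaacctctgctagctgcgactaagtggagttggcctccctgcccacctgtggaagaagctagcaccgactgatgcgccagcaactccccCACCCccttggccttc
A promoter window was available for only 5 genes of the integrin set. Itga6, which also rose, had none, and neither did Itgae, Itgal, Itgb2 and Itgb3. Whether matches go with the stage difference across the set was therefore not tested. The Itgb7 and Itga4 windows each held 4 matches on both strands together, the Itgb8 and Itgb1 windows 2 each and the Itgav window 1. Of 32851 promoter windows of the same length, 52% held at least 1 match, the median was 1, and 2.14% held 4 or more. A match describes these letters and is not evidence of binding.

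Itgal, the alpha chain of LFA-1, read 11.09 and 11.42 in Qa2+ cells of miR-142-/- and WT, against 11.56 and 11.82 in Qa2- cells. Its averaged difference was -0.43 ± 0.10 (SE, limma adjusted p = 0.0279). The beta chain Itgb2 read 11.92 and 12.11 in Qa2+ cells of miR-142-/- and WT, against 12.32 and 12.43 in Qa2- cells, a difference of -0.36 ± 0.10 (SE). Its limma adjusted p of 0.049996 lay just under the threshold of 0.05 and passed it no longer after the arrays were centred on their medians (adjusted p = 0.11).

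Itgb1, which pairs with many alpha chains, read 9.48 and 9.14 in Qa2+ cells of miR-142-/- and WT, against 9.82 and 9.73 in Qa2- cells. It fell by 0.46 ± 0.11 (SE, limma adjusted p = 0.0293). Of the beta chains that Itga4 can use, Itgb7 therefore rose and Itgb1 fell between the stages.

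The remaining tested genes did not pass. Itgae, the CD103 chain, was higher in Qa2+ cells by 0.29 in miR-142-/- and 0.45 in WT, averaging 0.37 ± 0.10 (SE, limma adjusted p = 0.0521). With median-centred arrays this became 0.45 ± 0.11 (SE, limma adjusted p = 0.0191), so the split of called genes was 4 higher and 2 lower there and 3 and 3 as deposited. Itgav differed by 0.18 ± 0.10 (SE, adjusted p = 0.261). Itgb3 differed by -0.31 ± 0.14 (SE, adjusted p = 0.189), an average of -0.60 in miR-142-/- and -0.02 in WT. The median stage difference of all 10 genes was -0.11 in miR-142-/- and 0.35 in WT, beside -0.06 in each genotype for all genes above background. These medians include Itgb8, chosen by its opposite stage values, so their opposite signs are not a result about the set. Averaged over genotypes, the 9 tested genes had a median of 0.18.

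Markers of other cells moved between the stages too. Of 6 double-positive thymocyte markers above background, 5 rose in Qa2+ cells and 1, Cd24a, fell, with a median stage difference of 1.12. The recombinase gene Rag1 read 8.02 and 8.63 in Qa2+ cells of miR-142-/- and WT, against 6.11 and 5.92 in Qa2- cells. The summed linear signal of the 7 measured markers was 2861 and 2213 in Qa2+ cells of miR-142-/- and WT, and 2728 and 2605 in Qa2- cells. Of 10 regulatory T cell markers 5 rose and 1 fell, and of 8 myeloid and dendritic markers above background 3 rose and 1 fell. These counts and that of the double-positive markers stand beside 4.77% of all genes that rose and 8.35% that fell. The part of such cells in the integrin stage differences was not tested.

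These tests rest on 2 pairs of arrays from 2 pools with 1 residual degree of freedom, so SEs reflect mainly the spread pooled over all genes and not that between mice. With genotype left out of the model, 0 of the 9 genes and 0 of all 12591 passed limma's adjusted threshold, with 5 and 1544 at an unadjusted p under 0.05.

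**Figure D2:**
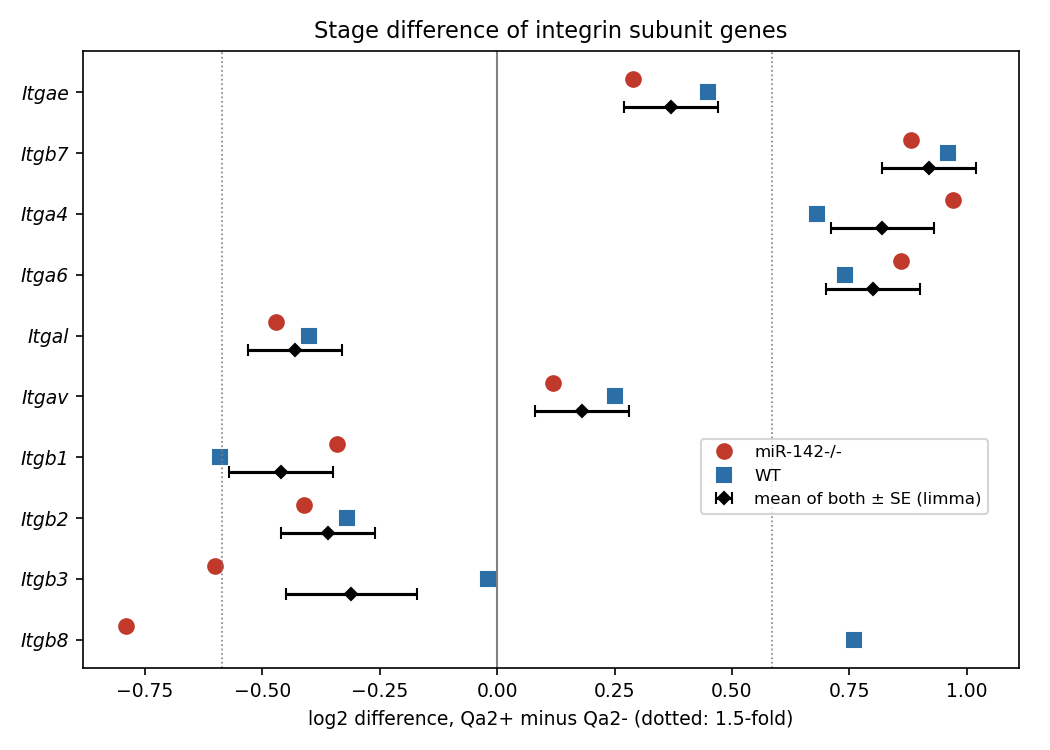
The log2 difference Qa2+ minus Qa2- of each integrin gene in miR-142-/- (red circles) and WT (blue squares), with the mean of both and its limma SE in black for the 9 tested genes; dotted lines mark 1.5-fold. Itgb7, Itga4 and Itga6 lie right of 1.5-fold in both genotypes, and the Itgb8 points lie on opposite sides of 0 (-0.79 and 0.76).

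Between genotypes, Itgae was lower in miR-142-/- cells at both stages, and Itgb8 and Itgb3 were lower in Qa2+ cells. In Qa2+ cells 3 of the 10 genes were lower by 1.5-fold or more and 0 higher, against 4.88% of all genes above background that were lower and 4.56% higher. Itgb8, chosen by its pattern over these arrays, was 1 of the 3. In Qa2- cells 1 gene was at least 1.5-fold lower and 0 were higher, against 3.74% and 3.11% of all genes. The 10 genes had a median difference, miR-142-/- minus WT, of -0.25 at the mature and -0.06 at the less mature stage, beside 0.00 and 0.00 for all genes.

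Itgae read 6.33 and 6.04 in miR-142-/- Qa2+ and Qa2- cells, against 7.91 and 7.46 in WT Qa2+ and Qa2- cells. Both miR-142-/- arrays were near the threshold of 5.87, where array values are compressed. The difference was -1.58 in Qa2+ cells (2.99-fold lower) and -1.41 in Qa2- cells (2.66-fold lower), the 88th and 76th lowest of 12591 genes. The partner chain of Itgae, Itgb7, differed by -0.10 and -0.02 in Qa2+ and Qa2- cells, so the chains of this receptor differed unequally between genotypes.

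Itgb3, known for its part in the vitronectin receptor with Itgav, read 9.79 and 10.39 in miR-142-/- Qa2+ and Qa2- cells, against 10.56 and 10.58 in WT Qa2+ and Qa2- cells. The miR-142-/- Qa2+ array stood below the other 3, which spanned 0.19. Its genotype difference was -0.77 in Qa2+ cells (1.71-fold lower) and -0.19 in Qa2- cells. Itgb3 is also abundant in platelets, and of the 6 measured megakaryocyte and platelet markers Pf4 and Ppbp were below background on all arrays, while the summed linear signal of the 6 was 480 and 459 in miR-142-/- Qa2+ and Qa2- cells and 476 and 451 in WT Qa2+ and Qa2- cells.

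Itgav, the chain reported as a miR-142 target in human cells, was higher in miR-142-/-, by less than 1.5-fold. It read 9.72 and 9.60 in miR-142-/- Qa2+ and Qa2- cells, against 9.33 and 9.08 in WT Qa2+ and Qa2- cells. The differences of 0.38 and 0.52 ranked 1247th and 497th from the top. The spread of genotype differences of receptor genes, a measure of scatter at low signal, was 0.18 in Qa2+ and 0.15 in Qa2- cells (SD).

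The other genes differed by less than 1.5-fold between genotypes. Itga4 was 0.45 and 0.16 higher in miR-142-/- Qa2+ and Qa2- cells, and Itgb1 0.34 and 0.09 higher. Itga6 (-0.30 and -0.42), Itgal (-0.33 and -0.26) and Itgb2 (-0.19 and -0.10) were lower in miR-142-/- Qa2+ and Qa2- cells. Each of these genes, and not the LFA-1 chains alone, thus ran in the same direction at both stages, and each difference has 1 array on either side. The Itgb2 differences were about the size of the receptor gene SDs of 0.18 and 0.15.

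**Figure D3:**
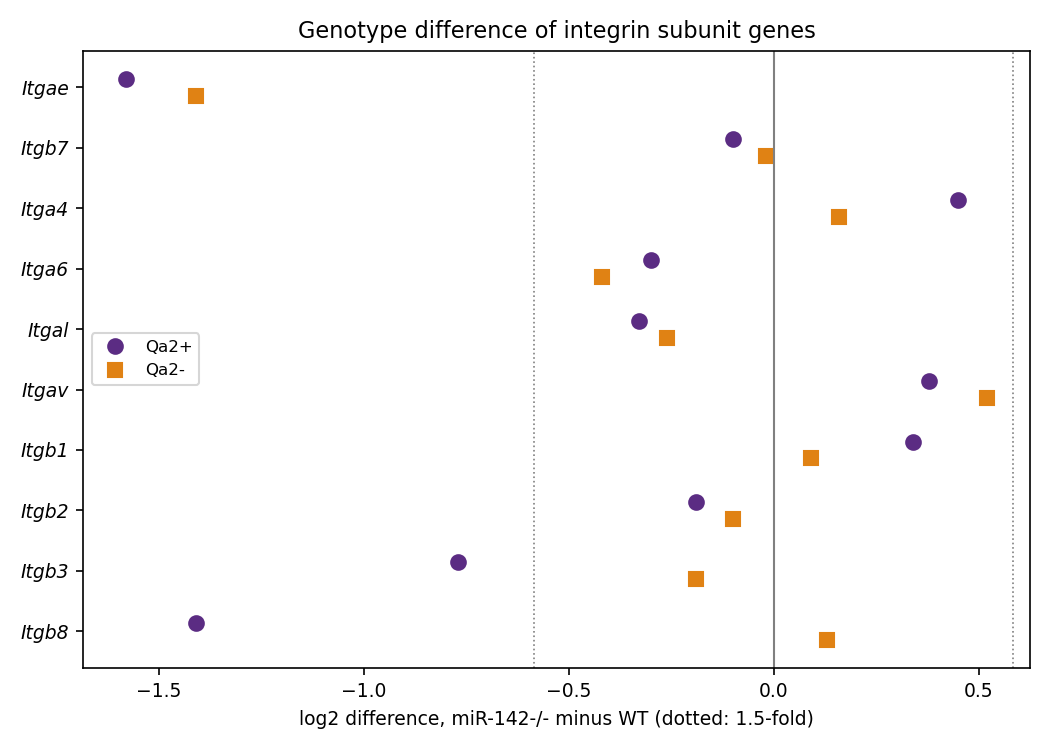
The log2 difference miR-142-/- minus WT of each integrin gene in Qa2+ cells (purple circles) and Qa2- cells (orange squares), 1 pair of arrays each; dotted lines mark 1.5-fold. Itgae lies left of 1.5-fold at both stages (-1.58 and -1.41), Itgb8 and Itgb3 in Qa2+ cells alone (-1.41 and -0.77), and no gene lies right of it.

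Itgb8 had a higher signal in mature than in immature WT cells and a lower one in mature than in immature miR-142-/- cells. It read 5.88 and 6.67 in miR-142-/- Qa2+ and Qa2- cells, against 7.29 and 6.53 in WT Qa2+ and Qa2- cells. The Qa2- arrays were close to each other, and the Qa2+ arrays were the highest and the lowest of the 4. Its stage difference was -0.79 in miR-142-/- (1.73-fold lower in Qa2+) and 0.76 in WT (1.69-fold higher), and the difference between these was -1.54, the 5th lowest of 12591 genes. In genotype terms it was -1.41 in Qa2+ cells (2.66-fold lower in miR-142-/-) and 0.13 in Qa2- cells.

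A difference between the stage differences of at least 1.5-fold was found for 1 of the 10 integrin genes, Itgb8, and for 3.42% of all genes. Itgb8 alone (0.00794% of genes) passed 1.5-fold in both genotypes with Qa2+ below Qa2- in miR-142-/- and above it in WT. The opposite crossing, higher in miR-142-/- and lower in WT, was found for 3 genes (0.0238%), Ccl3, Nkg7 and Sfrp2. The pattern was part of the choice of Itgb8, so these counts describe it and test nothing. Itgb3 came next among the integrin genes, with stage differences 0.58 lower in miR-142-/- than in WT, followed by Itga4, 0.29 higher.

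**Figure D4:**
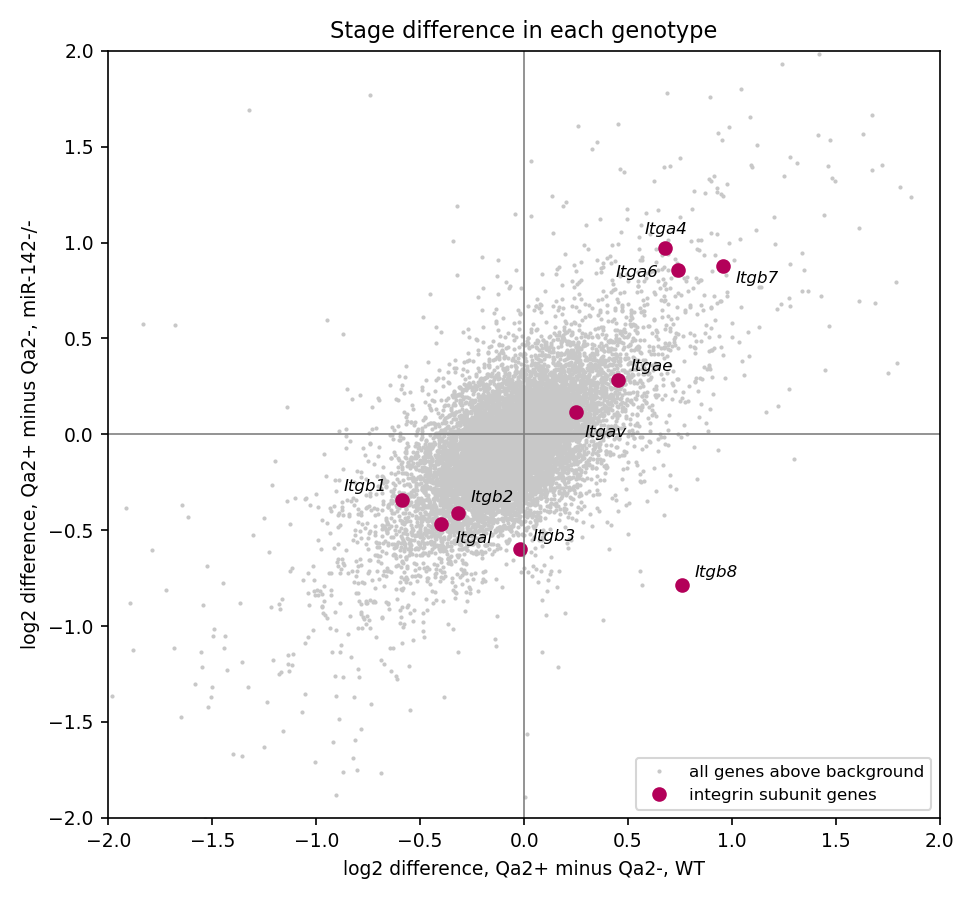
The log2 stage difference, Qa2+ minus Qa2-, in miR-142-/- (vertical axis) against WT (horizontal axis) for genes above background in grey and the 10 integrin genes in magenta; 29 genes lie outside the plotted range. Itgb8 lies at the lower right (0.76 in WT and -0.79 in miR-142-/-), away from the diagonal cloud that holds the other integrin genes. It is the only gene there past 1.5-fold in both genotypes, and H4c6 (0.56 in WT and -0.71 in miR-142-/-) lies near it.

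Genes with the pattern most like that of Itgb8 and Itgae were taken by the distance between log2 values of the 4 arrays, after each gene was centred on its own mean. For Itgb8 the nearest were the histone genes H2ax and H4c6, the spindle gene Troap, the Toll-like receptor adaptor Ticam2 and the ISG15-conjugating enzyme Ube2l6, at distances of 0.35 to 0.41. All of them had a negative stage difference in miR-142-/- (-0.24 to -0.71) and a positive one in WT (0.45 to 0.59). For Itgae the nearest were the cytokinesis gene Anln, the cohesin protector Sgo1, the splicing regulator Mbnl3, the orphan receptor Gprc5b and the mitotic kinase Mastl, at distances of 0.05 to 0.17. These had genotype differences of -1.36 to -1.55 in Qa2+ and -1.20 to -1.46 in Qa2- cells, with Mastl below background on both miR-142-/- arrays and Anln on the Qa2- one. As the genes near Itgb8 and near Itgae were picked by this distance, their shared patterns follow from the choice and test nothing.

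Regulatory T cells carry both Itgae and Itgb8, and some of their markers moved in these arrays. Foxp3, their defining transcription factor, read 8.69 and 7.01 in miR-142-/- Qa2+ and Qa2- cells, against 10.36 and 8.21 in WT Qa2+ and Qa2- cells. Lrrc32, which anchors latent TGF-beta, read 8.03 and 7.70 in miR-142-/- Qa2+ and Qa2- cells, against 9.32 and 7.87 in WT Qa2+ and Qa2- cells. Like Itgb8, Lrrc32 differed by genotype in Qa2+ cells (-1.29) and little in Qa2- cells (-0.18), but its stage difference was positive in both genotypes (0.33 in miR-142-/- and 1.45 in WT).

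All 10 regulatory T cell markers lay above background on every array. In miR-142-/- cells 2 of them were lower by 1.5-fold or more at both stages and 2, Gpr83 and Nt5e, were higher, against 2.76% and 2.14% of all genes. In Qa2+ cells alone 5 were lower and 2 higher (4.88% and 4.56% of all genes), with a median difference of -0.40. In Qa2- cells 2 were lower and 2 higher (3.74% and 3.11% of all genes), with a median of 0.09. For 3 of the 10, Lrrc32, Tnfrsf4 and Nt5e, the stage difference was lower in miR-142-/- than in WT by 1.5-fold or more, as for Itgb8. The share of all genes this far apart in either direction was 3.42%. The summed linear signal of the 10 was 11559 and 13154 in miR-142-/- Qa2+ and Qa2- cells and 12750 and 11232 in WT Qa2+ and Qa2- cells. Ctla4, the other marker lower at both stages, differed by -2.65 and -2.61. In bulk RNA, fewer cells of a type and less RNA per cell cannot be told apart, and the part of regulatory T cells in the Itgae and Itgb8 values was not tested.

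Cytotoxic T cells also carry Itgae. Of 10 markers of CD8 single-positive and cytotoxic cells, 3 were lower in miR-142-/- by 1.5-fold or more at both stages and 0 higher. The shares of all genes were 2.76% and 2.14%. The summed linear signal of the 10 was 2272 and 2235 in miR-142-/- Qa2+ and Qa2- cells and 3201 and 4631 in WT Qa2+ and Qa2- cells. Of 8 innate-like T cell markers, 5 above background, 4 were lower by that much at both stages, also beside 2.76% of all genes. The sums over the 8 were 1084 and 1143 in miR-142-/- Qa2+ and Qa2- cells and 2637 and 2661 in WT Qa2+ and Qa2- cells. Gzmb was below background on both miR-142-/- arrays (5.43 and 5.62) and read 6.02 and 8.88 in WT Qa2+ and Qa2- cells. Whether these cells carried the Itgae signal was not tested.

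Among 18 other integrin subunit genes, 12 were above background, and the largest genotype differences were in Itga8, Itga5 and Itga3. These chains join Itgb1, but so do others above background that differed little in Qa2+ and Qa2- cells. Examples are Itga9 (-0.10 and 0.16) and Itga10 (-0.10 and 0.00). Itga8, an alpha chain known from kidney and smooth muscle, read 6.65 and 7.24 in miR-142-/- Qa2+ and Qa2- cells, against 5.38 and 5.98 in WT Qa2+ and Qa2- cells, 1.26 higher in miR-142-/- at each stage. As its WT Qa2+ value was below background, it was at least 1.72-fold higher in Qa2+ and 2.40-fold higher in Qa2- cells. Itga3, a laminin receptor chain, was 0.70 and 0.59 higher, and the fibronectin receptor chain Itga5 0.71 and 0.63 lower, on the log2 scale. These are 2 genes at least 1.5-fold higher and 1 lower at both stages, against 2.14% and 2.76% of all genes. The same shares by genotype, and 4.77% rising and 8.35% falling by stage, apply to each of the other lists, where a count of 0 or 1 by genotype is near them. Itga3 fell just short of that bound in Qa2- cells (0.56) when arrays were centred on their medians.

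Between stages, 1 of the 12 other subunits rose and 2 fell in Qa2+ cells. Itga2, a collagen receptor chain, rose by 0.43 ± 0.10 (SE, limma adjusted p = 0.0289). Itga5 fell by 0.68 ± 0.10 (SE, limma adjusted p = 0.00553) and Itga8 by 0.59 ± 0.10 (SE, limma adjusted p = 0.00903). The Itga8 value rests on 1 array below background, so that it was 1.51-fold lower in Qa2+ cells of miR-142-/- and at least 1.08-fold lower in those of WT. With Itgb1 lower as well, the fibronectin receptor chains Itga5 and Itgb1 fell together.

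Most genes that switch integrins on differed little. Of 25 inside-out activation genes above background, 1, the adaptor Skap2, was at least 1.5-fold higher in miR-142-/- at both stages and 0 were lower. Skap2 read 9.45 and 9.19 in miR-142-/- Qa2+ and Qa2- cells, against 7.69 and 7.46 in WT Qa2+ and Qa2- cells, a difference of 1.76 and 1.74. Between stages 2 of the 25 rose and 0 fell: Rasgrp2, the exchange factor that loads Rap1, by 0.66 ± 0.11 (SE, limma adjusted p = 0.00883), and Apbb1ip, the Rap1 effector that recruits talin, by 0.41 ± 0.10 (SE, limma adjusted p = 0.0336). The median genotype difference of the list was 0.01 in Qa2+ and 0.00 in Qa2- cells.

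Of 25 adhesion adaptors and kinases above background, 1 was at least 1.5-fold lower in miR-142-/- at both stages and 0 higher. It was Actn1, an actin crosslinker at integrin tails, at 10.56 and 9.87 in miR-142-/- Qa2+ and Qa2- cells, against 11.74 and 11.29 in WT Qa2+ and Qa2- cells. Actn1 also rose in Qa2+ cells, by 0.57 ± 0.11 (SE, limma adjusted p = 0.0141). Rsu1, a partner of the integrin-linked kinase complex, fell by 0.56 and the focal adhesion kinase relative Ptk2b by 0.43, so 1 gene of this list rose and 2 fell.

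Of 28 measured integrin ligands 17 were above background, with the means of Vcam1 and Fn1 below it. Of the 17, 1 fell in Qa2+ cells and 0 rose. It was Cd40lg, a T cell surface ligand that can also bind integrins, lower by 1.27 ± 0.10 (SE, limma adjusted p = 0.00067).

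Of 26 TGF-beta activation and signalling genes above background, 0 were at least 1.5-fold apart by genotype in the same direction at both stages. In Qa2+ cells 5 rose and 2 fell, against 4.77% and 8.35% of all genes. Smad7, the feedback inhibitor of the pathway, rose by 1.36 ± 0.10 (SE, limma adjusted p = 0.00047) and Lrrc32 by 0.89 ± 0.22 (SE, limma adjusted p = 0.0366). The receptors Acvrl1 and Eng fell by 0.96 and 0.74. For Lrrc32 and Eng the stage difference was smaller in miR-142-/- (0.33 and -0.26) than in WT (1.45 and -1.21). Tgfb1, the cytokine whose latent form Itgav with Itgb8 activates, read 10.27 and 10.72 in miR-142-/- Qa2+ and Qa2- cells, against 10.72 and 10.87 in WT Qa2+ and Qa2- cells.

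Membrane partners of integrins were higher in miR-142-/- in several cases. Of 15 tetraspanins and partners above background, 3 were at least 1.5-fold higher at both stages and 0 lower (2.14% and 2.76% of all genes). They were Ptgfrn (1.25 in Qa2+ and 1.01 in Qa2- cells), the urokinase receptor Plaur (0.93 and 1.06) and Cd151 (0.92 and 1.08), a tetraspanin that binds laminin receptors. Between stages 2 of the 15 rose and 2 fell, beside 4.77% and 8.35% of all genes. Cd9 rose by 0.70 and Plaur by 0.46, while Ptgfrn fell by 0.68 and Cd81 by 0.54.

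Among 15 other adhesion molecules of lymphocytes above background, 1 was at least 1.5-fold higher in miR-142-/- at both stages and 3 were lower. The shares of all genes were 2.14% and 2.76%. Alcam, the ligand of Cd6, was 1.09 and 1.33 higher in Qa2+ and Qa2- cells. Cd44, a hyaluronan receptor, differed by -0.81 and -1.03, Spn by -0.90 and -0.73, and Cd48, a ligand of Cd2 in mouse, by -0.75 and -0.65. Of the 15, 3 rose and 3 fell between stages, against 4.77% and 8.35% of all genes. Ceacam1 was lower by 1.03, Slamf1 by 0.52 and Cd6 by 0.46 in Qa2+ cells, and the selectin ligand Selplg was higher by 0.42.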

How the data were processed

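Per probe set, the authors deposited 1 log2 value for each array. The submitters' processing notes list RMA and Partek; their versions and settings are not stated there. RMA summarises probes on the log2 scale and compresses differences of dim probe sets. Of 35557 probe sets, 21789 had 1 gene symbol, 1621 several and 12147 none in the platform annotation, and 21698 were updated by Entrez ID to GRCm38.p6 names. For each of 19938 genes the probe set of highest mean was kept; 12591 genes had a mean above log2 5.87.

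Genotype differences are miR-142-/- minus WT and stage differences Qa2+ minus Qa2-, counted at 1.5-fold, with no test at 1 array per group. The averaged stage difference was fitted with limma 3.58.1 (R 4.3.3; genotype block, prior of 6.94 degrees of freedom, two-sided, Benjamini-Hochberg, threshold 0.05). Tested on simulated data, the fit recovered nearly all planted changes, but the share of false calls was above the nominal rate in every simulation, in some well above it. Named pathway genes were those at least 1.5-fold apart by genotype at both stages or passing the stage test, at most 4 per list and comparison; marker genes, Tgfb1 and genes of the opposite crossing were named outside this rule. Members and lists were chosen with earlier results of these data known. Short probes can cross-hybridise.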

Additional observations from a re-analysis of the deposited data

Results flagged for a closer look

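Itgb8 drew attention because its arrays moved in opposite directions. Its stage difference, Qa2+ minus Qa2-, was -0.79 in miR-142-/- and 0.76 in WT, and its genotype difference, miR-142-/- minus WT, was -1.41 in Qa2+ and 0.13 in Qa2- cells. The difference was not tested, since each value rests on 1 array per group, and the miR-142-/- Qa2+ value of 5.88 lay at the background threshold of 5.87. As deposited, no other integrin gene of the 10 had stage or genotype differences of opposite sign. Itgb3 did so by stage with median-centred arrays (-0.53 in miR-142-/- and 0.08 in WT) and with quantile normalization (-0.56 and 0.04).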

How the results depend on the processing

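Of the settings tried, leaving genotype out of the stage model (no replicate block) changed most, with 0 of 9 integrin genes called against 6. No other paired analysis was possible because each group holds 1 array, and no array could be left out for the same reason. Median centring and quantile normalization each gave 2 integrin genes, in place of 1, whose stage differences were at least 1.5-fold apart between genotypes, the second being Itgb3 (-0.61 and -0.59, against -0.58 as deposited). The number called by stage was 5 to 7 under the other 7 settings of that fit, Itgb2, Itgae and, after centring, Itgal (adjusted p = 0.05, still called) being near the threshold. Itgb2 had adjusted p of 0.0504 with a robust prior and with the mean of all probe sets, 0.0635 after quantile normalization and 0.11 after centring. Itgae passed after centring (0.0191), after quantile normalization (0.0212), with no background filter (0.0448) and with the stricter background (0.0361). No integrin value called at 1.5-fold or by limma reversed its direction under any setting run. The stricter background (log2 6.75) was applied to the stage fit alone and not to the 1.5-fold comparisons. The mean of Itgb8 (6.59) lay below it, as did those of Itga8 (6.31), Itga3 (6.56) and Itga2 (6.21). The 1.5-fold calls of Itgb3 in miR-142-/- and Itgb1 in WT by stage ended under centring and quantile normalization. Signal over background is smallest for Itgae and Itgb8.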

Other observations

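Itga1, the collagen receptor chain of effector T cells, was detected on a single array. It read 6.96 in WT Qa2- cells, against 5.08 in miR-142-/- Qa2+, 5.00 in miR-142-/- Qa2- and 5.00 in WT Qa2+ cells, all below background. Its mean over the arrays was below the threshold, so it entered no count, and it was singled out after its values were seen. The innate-like and natural killer genes Klrb1c (7.42) and Klrk1 (6.80) were likewise above background in WT Qa2- cells alone, and Gzmb (8.88) and Klrd1 (7.96) were highest there. These genes too were picked from their lists after their values were seen. The summed linear signal of the whole innate-like list was 2637 and 2661 in WT Qa2+ and Qa2- cells. That of the CD8 single-positive and cytotoxic list was 3201 and 4631.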
